A study of Mus musculus with 52 samples.

Results

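The hypoxia and glycolysis genes described here are 36 genes, of the 20730 in the deposited count table, that were listed by symbol. They comprise 3 regulators of the oxygen response, 17 glucose transporters and glycolytic enzymes, 5 genes that control glycolytic flux and the fate of pyruvate, and 11 other genes known to be induced by low oxygen. The study compared primary osteosarcomas of mice with different alleles of Trp53, the gene of the tumour suppressor p53, by RNA-seq of bulk tumour RNA. The 52 libraries fell into 3 genotypes by their labels: p53fl/fl with 16 libraries, in which both alleles were conditional (floxed, marked fl); p53R172H/fl with 19 libraries, in which 1 allele carried the R172H missense change and 1 was conditional; and p53R245W/fl with 17 libraries, in which 1 allele carried R245W and 1 was conditional. Each genotype thus carried at least 1 conditional allele, and no group had 2 unaltered alleles, so no comparison with tissue of unaltered p53 could be made. The sources used here name neither what drives recombination of the conditional alleles nor the strain or age of the mice. The labels do not say that the libraries of a group came from separate animals, so the p-values measure the spread between these libraries, which may be technical.

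In normal oxygen, the prolyl hydroxylases Egln1 and Egln3 mark the HIF alpha subunits for destruction through the Vhl ubiquitin ligase, and in low oxygen the stable Hif1a protein pairs with Arnt and binds short DNA cores near its target genes. Its known targets take up glucose, carry it through glycolysis to lactate, divert pyruvate from oxidation in the mitochondria, start mitophagy and make matrix collagen and vessel growth signals. Hif1a is controlled mainly as a protein, so its transcript is not a measure of its activity. Solid tumours commonly contain poorly perfused regions, and bone tumours make much collagen, whose prolines are hydroxylated by P4ha1 and P4ha2.

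The DNA just upstream of the genes shows what many of them share besides their names. The core ACGTG and its known variant GCGTG were searched on both strands in windows of 300 bases, from 250 bases before to 50 after the gene start, taken from RefSeq (GRCm38.p6). Such windows were matched to 33 of the 36 genes, Ero1l under its RefSeq symbol Ero1a, and Bnip3l, Slc2a3 and Ndrg1 had no entry. ACGTG was found in at least 1 window of 23 of the 33 genes (69.7%), against 21.8% of 27025 genes with a window. GCGTG was found in 22 (66.7%), against 35.2%. Either core was found in 30 of 33 (90.9%), against 46.7%, and Gpi1, Tpi1 and Eno2 had neither in this window. The E-box CACGTG, which holds ACGTG on both strands and is then counted on each, was found in 5 (15.2%), against 8.1%. Both cores hold a CpG, and the windows of these genes were richer in it, with a median of 20 CpG per window against 7 over all windows, and a median GC content of 62.0% against 52.7%. The 33 genes had 49 windows and the 27025 genes 32851, so these genes had more windows per gene in which a core could be found. The parts of composition and of window number in the shares above were not tested.

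The sequences of 5 of them are printed because they span the range of agreement between tumours that the next sections describe: Pgk1, Pgam1, Egln3 and Gapdh were the 4 most coherent and Hif1a the least coherent gene among those with 1 window and no annotated exon in the 250 bases before the gene start. Each is those 250 bases, 5′ to 3′ on the gene's strand, and capitals mark either core, read on either strand.
Pgk1 (chrX:106186850-106187099, plus strand): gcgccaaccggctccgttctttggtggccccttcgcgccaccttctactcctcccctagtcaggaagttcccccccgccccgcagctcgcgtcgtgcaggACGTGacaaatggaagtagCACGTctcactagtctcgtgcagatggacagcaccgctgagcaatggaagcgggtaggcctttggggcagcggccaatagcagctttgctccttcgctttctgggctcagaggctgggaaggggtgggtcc
Pgam1 (chr19:41911621-41911870, plus strand): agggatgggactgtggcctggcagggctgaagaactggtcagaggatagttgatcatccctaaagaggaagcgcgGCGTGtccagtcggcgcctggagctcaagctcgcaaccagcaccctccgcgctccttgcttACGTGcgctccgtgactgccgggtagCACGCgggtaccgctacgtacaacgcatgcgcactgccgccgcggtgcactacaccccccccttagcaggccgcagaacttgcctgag
Egln3 (chr12:54203875-54204124, minus strand): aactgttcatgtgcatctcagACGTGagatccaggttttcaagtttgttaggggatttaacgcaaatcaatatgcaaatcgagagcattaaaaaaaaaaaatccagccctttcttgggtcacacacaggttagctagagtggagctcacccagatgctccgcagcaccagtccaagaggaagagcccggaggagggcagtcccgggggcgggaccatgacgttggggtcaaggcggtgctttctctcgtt
Gapdh (chr6:125165774-125166023, minus strand): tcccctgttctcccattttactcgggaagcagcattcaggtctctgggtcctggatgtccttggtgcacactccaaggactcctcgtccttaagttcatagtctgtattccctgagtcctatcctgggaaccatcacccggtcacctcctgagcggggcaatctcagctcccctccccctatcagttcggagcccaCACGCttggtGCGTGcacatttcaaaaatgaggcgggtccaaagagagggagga
Hif1a (chr12:73907617-73907866, plus strand): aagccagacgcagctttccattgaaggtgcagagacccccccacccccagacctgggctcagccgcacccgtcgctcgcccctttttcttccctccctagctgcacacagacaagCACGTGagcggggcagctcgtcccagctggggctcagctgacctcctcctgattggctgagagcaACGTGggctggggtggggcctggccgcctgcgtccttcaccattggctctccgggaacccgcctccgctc
Pgk1, the kinase that makes the first ATP of glycolysis, had an ACGTG core on each strand, starting at positions -150 and -131 counted from the gene start. Hif1a itself held an E-box whose overlapping cores start at -135 and -134, and a further core at -70. That window lies in an intron of the longer gene model of GENCODE M21, which spans chr12:73901375-73947530. The Gapdh window likewise lies in an intron of its GENCODE M21 gene, which spans chr6:125161715-125166467. A match is a stretch of letters and not a measured site of binding, which was not assayed.

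Facts of the whole data set bear on the values below. Library totals were 21596798 to 67223388 counts, with a median of 51026968.5. Column names carry prefixes that fall into 3 library sets. Set A consisted of 8 libraries each of p53fl/fl and p53R172H/fl, set B of 6 libraries per genotype, and set C of 2 p53fl/fl, 5 p53R172H/fl and 11 p53R245W/fl libraries. In set C, the p53R245W/fl libraries, all but tumour 1580, carry other L-numbers in their column names than the remaining genotypes. What those numbers stand for is not stated, and within set C they can hardly be told apart from p53R245W/fl. Each set B library matched 1 library of set A or C with another tumour number (18 pairs, Spearman correlation of gene deviations 0.635 to 0.932, against at most 0.515 for the next best), so the libraries formed 34 units (10, 13 and 11 by genotype) that may be separate tumours. Trp53 was 8.52 to 20.1 CPM (counts scaled to a common library total) in p53fl/fl, 26.05 to 49.2 in p53R172H/fl and 22.03 to 60.1 in p53R245W/fl libraries, with no overlap between p53fl/fl and the missense groups. Summed osteoblast lineage markers were at 31640 to 163600 CPM in p53fl/fl and 41540 to 166400 in p53R172H/fl libraries, but spanned 2623 to 177400 in p53R245W/fl, none of the markers was at 0 throughout a genotype, and 5 p53R245W/fl libraries of 3 units (494 with 1831, 408 with 1835, and 1580) had low Col1a1. Results that rest on these 5 libraries are given with and without them. In bulk tumour RNA, fewer cells of a type and less RNA per cell cannot be told apart.

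Pkm, Aldoa, Gapdh, Ldha, Tpi1 and Eno1 had the highest levels per length of the 36 genes. Levels per length are given as FPKM, CPM divided by the exonic length in kilobases. Pkm, the last enzyme of glycolysis, had a median of 226 FPKM over the 52 libraries (range 123 to 515). Aldoa, which splits fructose bisphosphate, followed at 173 (82.8 to 585), then Gapdh and Ldha, the lactate producing dehydrogenase, at 136 each, and Tpi1 at 113. Neighbours in this order were often not separated: Pkm was above Aldoa in 34 of 52 libraries and Gapdh above Ldha in 27, whereas Tpi1 was above the next gene, Eno1, in 48. Eno1 (70.8) and the collagen prolyl hydroxylase P4ha1 (65.4) came next, with Eno1 the higher in only 21 libraries. The collagen enzyme P4ha2 stood at 38.9, level with the isomerase Gpi1 at 39.1. The mutase Pgam1 stood lower, at 15.9, below P4ha1, P4ha2, Vegfa, Hif1a and Ndrg1. Car9, a membrane carbonic anhydrase widely used as a hypoxia marker, was the lowest of all at 0.686 (0.0698 to 4.16).

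**Figure D1:**
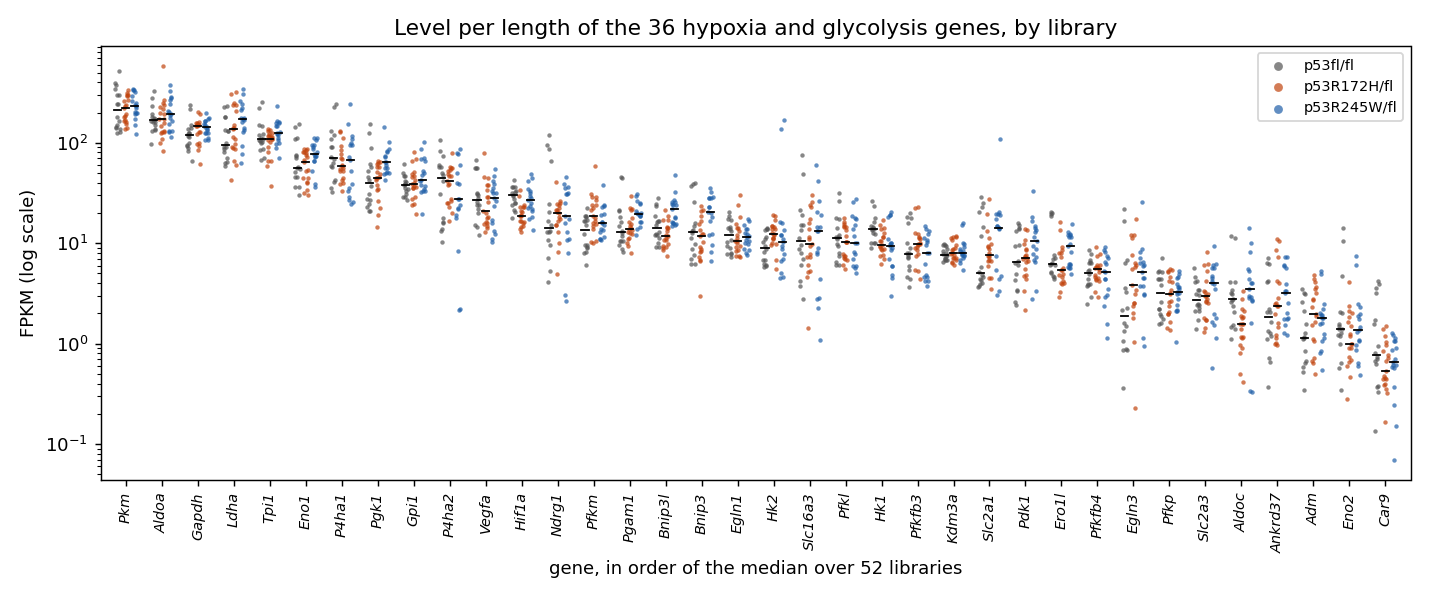
Level per length (FPKM, log scale) of the 36 genes in each of the 52 libraries, in order of the median over all libraries. Points are libraries coloured by genotype and black bars are the medians of the genotypes; levels fall from Pkm (median 226) to Car9 (0.686), and the 3 genotypes overlap for every gene.

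At several steps of glycolysis 1 isozyme was dominant. Aldoa exceeded the brain type aldolase Aldoc, and Eno1 the neuronal enolase Eno2, in all 52 libraries per length. Pfkp, the platelet phosphofructokinase, was below the liver type Pfkl in all 52. Pfkm, the muscle type, was above Pfkl in 38 of 52. That order rests on their exonic lengths of 3340 and 6675 bases, which cover all annotated exons. In CPM, not divided by length, the median was 54.5 for Pfkm and 68.7 for Pfkl. The count for Pfkp also depends on its length of 13401 bases. Its median was 42.5 CPM, and in some libraries it was above Pfkl in CPM, as in tumour 847 (70.1 against 68.2). Slc2a1, the basal glucose transporter GLUT1, was above Slc2a3 (GLUT3) in 48 of 52. That count depends on their lengths of 3506 and 7245 bases. In CPM the medians were 27.5 and 22.2, and Slc2a3 was the higher in some libraries, as in the p53fl/fl tumour 1431 (33.3 against 12.98). The oxygen sensor Egln1 was above Egln3 in 48 of 52, and Pfkfb3 was above Pfkfb4, 2 makers of the glycolysis activator fructose 2,6-bisphosphate, in 41 of 52. The mitophagy receptors Bnip3 and Bnip3l were close per length, with Bnip3 the higher in 23 of 52. In CPM their medians were 30.2 and 59.8. Hk2 was above Hk1, the other of the hexokinases that trap glucose in the cell, in 18 of 52.

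Egln3 varied most between tumours. Its level was 0.963 to 58.7 CPM in p53fl/fl libraries (median 5.02), 0.609 to 46.8 in p53R172H/fl (median 10.2) and 2.52 to 68.7 in p53R245W/fl (median 13.9). Each genotype thus spanned a wide range, and the lowest values came from p53fl/fl and p53R172H/fl libraries. The SD of Egln3 over the 34 units was 1.52 on the log2 CPM scale, and that of the lactate exporter Slc16a3 (MCT4) 1.28. Eno2 (1.16), P4ha2 (1.13), the stress gene Ndrg1 (1.11), Aldoc (1.11), Ankrd37 (1.11), Car9 (1.10) and Slc2a1 (1.08) followed. The histone demethylase Kdm3a (0.304), Gapdh (0.401) and Hif1a (0.441) varied least. Over the 36 genes the median SD was 0.678, against 0.709 over all 18882 genes tested, so as a list they were about as variable as other genes. Matched libraries differed by a median of 0.237 in log2 CPM over these genes, against 0.356 over all genes. For Hk1, however, the median difference between matched libraries (0.759) exceeded its SD over units (0.518), as it did for Gpi1 (0.565 against 0.450). Slc16a3 and Slc2a3 were lower in the set B library in 17 of 18 matched pairs, by a mean of 0.645 and 0.430, Ldha in 16 of 18, and Hif1a was higher in set B in 17 of 18 by 0.336. Library set therefore moved with the levels of these genes, and values within sets are given for the called genes.

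Many of the 36 genes rose and fell together from tumour to tumour. Over the 34 units, the median Spearman correlation over the 630 pairs of these genes was 0.286, with a range of -0.376 to 0.763, against -0.003 over all pairs of genes tested. The points share library totals and cell content. The strongest pairs were Pgk1 with Ero1l, the oxidase of disulfide formation (0.763), and Pgam1 with Eno1, which catalyse successive steps (0.753). Bnip3 (median 0.477 with the other 35), Slc16a3 (0.467), Ankrd37 (0.447) and Pgk1 (0.443) were the most coherent, with Bnip3 positively correlated with all 35. Bnip3l stood apart from Bnip3, to which it is closely related: its median was -0.052, and it correlated positively with 11 of 35. Pfkfb4 (0.009), Eno2 (0.066) and Kdm3a (0.088) were also close to unrelated, and Hif1a was weakly related at 0.154.

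**Figure D2:**
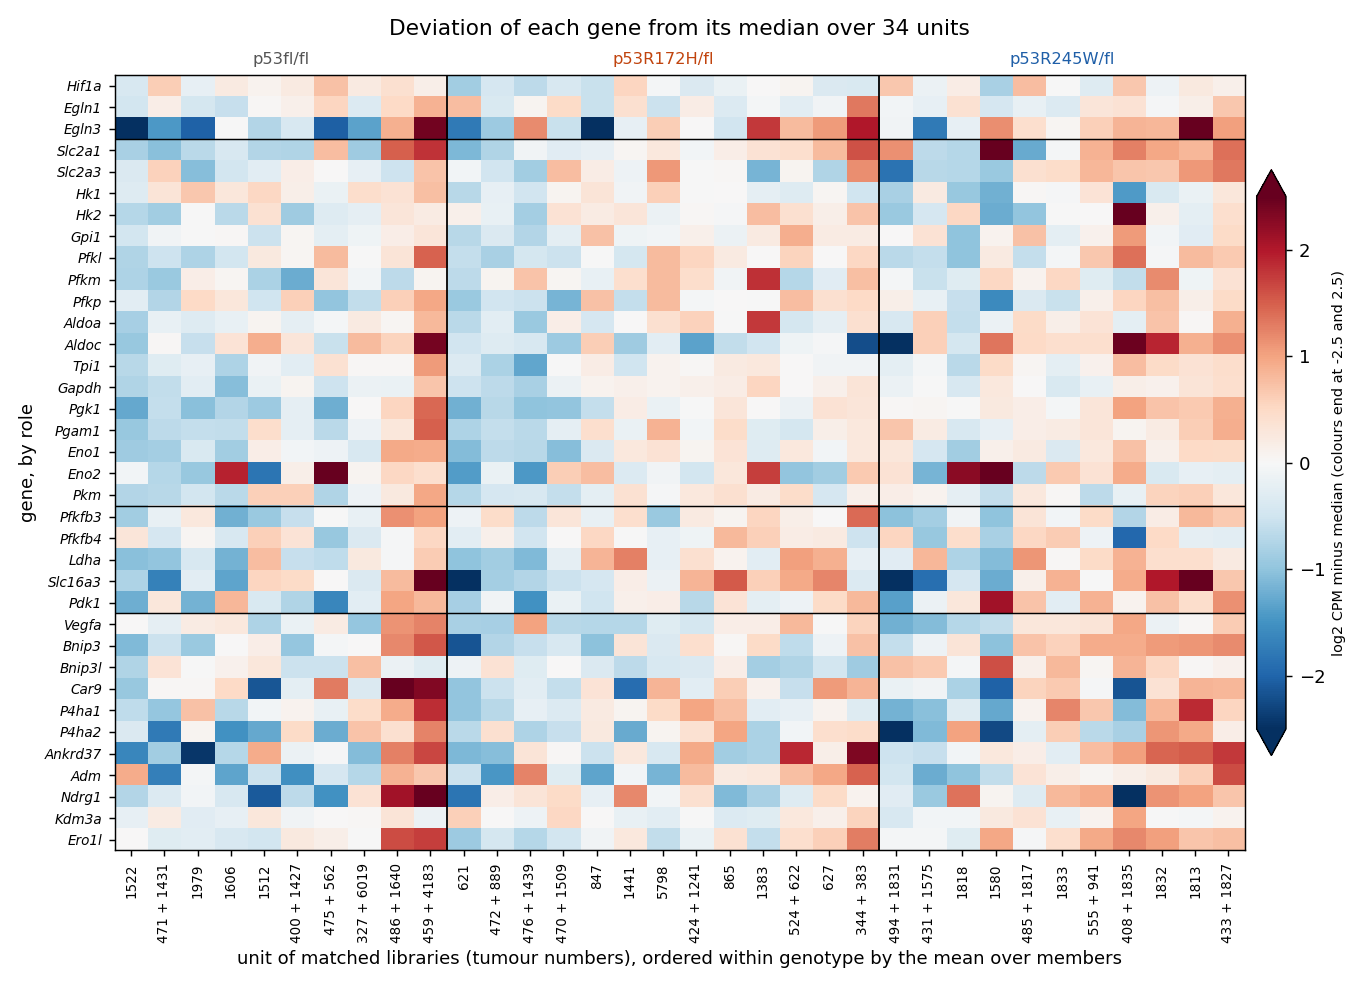
Deviation of each gene (rows, grouped by role) from its median over the 34 units in log2 CPM, with units (columns, named by tumour number) ordered within each genotype by the mean over all 36 genes. Red is above and blue below the median; the p53fl/fl unit 459 with 4183 is high for most rows (mean 1.11) and the p53R172H/fl unit 621 is low for most (mean -0.786).

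Single tumours stood at the ends of this shared pattern in each genotype. In the p53fl/fl unit 459 with 4183, 34 of the 36 genes were above their median over units, and the mean deviation was 1.11 on the log2 scale. The p53R245W/fl unit 433 with 1827 also had 34 genes above, with a mean of 0.646, and the p53fl/fl unit 486 with 1640 had a mean of 0.610. At the other end, the p53R172H/fl unit 621 had 3 genes above the median and a mean of -0.786, and the p53fl/fl unit 1522 had 4 and a mean of -0.689. The genotypes overlapped: the mean deviation had a median of -0.204 in p53fl/fl (SD 0.539), 0.054 in p53R172H/fl (SD 0.327) and 0.178 in p53R245W/fl (SD 0.390). For the 11 other hypoxia genes alone, the 2 p53fl/fl units 459 with 4183 and 486 with 1640 stood highest, at 1.31 and 1.11.

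Of 10 relations between named pairs, 6 passed Benjamini-Hochberg adjustment over the 10 (Pearson's r with a permutation p, 34 units). P4ha1 and P4ha2 correlated at r = 0.695 (Spearman 0.678, p = 2e-05, adjusted p = 0.0002). Ankrd37 and Bnip3 correlated at r = 0.660 (Spearman 0.634, p = 4e-05, adjusted p = 0.0002). The secreted vessel signals Vegfa and Adm correlated at r = 0.634 (Spearman 0.642, p = 9e-05, adjusted p = 0.0003). Pgk1 with Ldha gave r = 0.542 (Spearman 0.557, permutation p = 0.00096, adjusted p = 0.00192) and Slc16a3 with Ldha r = 0.529 (Spearman 0.600, p = 0.00093, adjusted p = 0.00192). Egln3 with Ndrg1 was the weakest of the 6, at r = 0.413 (Spearman 0.443, permutation p = 0.0155, adjusted p = 0.0259). Without the 2 units farthest from the median of the first gene, these values were 0.662, 0.646, 0.641, 0.493, 0.504 and 0.440 in the same order. The p-values of the permutation Spearman tests, adjusted in the same way, were 0.000333 for the first 3 relations, 0.00146, 0.000375 and 0.0153.

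Within genotypes and sets, the coefficients kept their sign but fewer passed. P4ha1 with P4ha2 gave r = 0.840 in p53fl/fl, 0.441 in p53R172H/fl and 0.727 in p53R245W/fl, and 0.679, 0.707 and 0.685 in sets A, B and C. Ankrd37 with Bnip3 gave 0.833, 0.465 and 0.714 by genotype and 0.550, 0.614 and 0.771 by set. Vegfa with Adm gave 0.557, 0.761 and 0.759, and 0.590, 0.637 and 0.795. Pgk1 with Ldha gave 0.558, 0.614 and 0.361 by genotype and 0.507, 0.649 and 0.522 by set. Slc16a3 with Ldha gave 0.763, 0.634 and 0.343, and 0.653, 0.427 and 0.422. Egln3 with Ndrg1 gave 0.700, 0.218 and 0.246 by genotype and 0.350, 0.452 and 0.331 by set. The differences between genotypes were not tested.

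The Hif1a transcript showed no detectable relation to 2 classical targets over the 34 units. With Vegfa it gave r = 0.166 (Spearman 0.164, permutation p = 0.349, adjusted p = 0.436; 0.056 without the 2 farthest units). With Slc2a1 it gave r = -0.059 (Spearman 0.066, permutation p = 0.740, adjusted p = 0.740; 0.084 without the 2 farthest units). Its coefficients with Slc2a1 differed in sign by genotype, with r = 0.311 in p53fl/fl, 0.363 in p53R172H/fl and -0.516 in p53R245W/fl, a difference that was not tested. None of these 3 passed (Pearson permutation p = 0.386, 0.217 and 0.103). In p53R172H/fl the Spearman coefficient of 0.659 did pass (permutation p of the Spearman test 0.0171, adjusted p = 0.0493). Slc2a1 with Ldha (r = 0.086, Spearman 0.225, permutation p = 0.633, adjusted p = 0.703; 0.270 without the 2 farthest units) and Car9 with Egln3 (r = 0.262, Spearman 0.345, permutation p = 0.133, adjusted p = 0.189; 0.132 without them) did not pass either. Without the low Col1a1 units, Car9 with Egln3 gave r = 0.406 (Spearman 0.488, permutation p = 0.0231, adjusted p = 0.0330).

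The 8 genes outside the 36 whose levels followed the mean deviation of the 11 other hypoxia genes most closely over the 34 units were Ndufa4l2 (Spearman 0.803), Nxph4 (0.738), Mgarp (0.737), Trib3 (0.719), Tmem45a (0.717), Atf3 (0.716), 4930405N21Rik (0.695) and Higd1a (0.694). Among the members outside that list, the closest were Slc16a3 (0.763), Egln3 (0.668), Pfkfb3 (0.658) and Pgk1 (0.654), and Hif1a was at 0.130. Within the list, whose own genes form the mean, Bnip3l was at -0.142.

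The p53R172H/fl comparison with p53fl/fl asked how the genes differed between tumours with the R172H change and tumours with conditional alleles only. Hif1a and Aldoc were lower and Pfkm was higher in p53R172H/fl by edgeR's quasi-likelihood test over the 52 libraries, with Benjamini-Hochberg adjustment over all 18882 genes and a threshold of 0.05. These 3 of 36 genes stand beside 3.75% of all genes called, and 8 of 36 had an unadjusted p under 0.05 beside 18.6% of all genes. The other 33 did not pass, and the median log2 fold change of the 36 genes was -0.16, against -0.02 over all genes. By role, 1 of 3 regulators, 2 of 17 transporters and enzymes, 0 of 5 flux genes and 0 of 11 other hypoxia genes were called. This edgeR test took the 52 libraries as independent. If matched libraries come from the same tumour, its p-values are too small. The same holds for the edgeR fits that leave out a unit. In the paired fit (limma with library set as a covariate and matched libraries as a block) and in edgeR on summed counts of matched libraries, 0 of 36 were called, beside 0.0106% and 0.259% of all genes. An unadjusted p under 0.05 was found for 2 and 4 of them, beside 9.0% and 11.5% of all genes. DESeq2 called 4, beside 6.21% of all genes. Without the 5 low Col1a1 libraries edgeR also called 4, beside 6.1% of all genes: the spread is estimated over all groups, and Car9 then passed (-1.10, edgeR adjusted p = 0.0372).

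Hif1a lay between 105 and 251 CPM in the p53fl/fl libraries (median 177), 76.7 and 202 in p53R172H/fl (median 111) and 79.8 and 286 in p53R245W/fl (median 159). Most p53R172H/fl tumours were low: 1 of 13 units was above the p53fl/fl median and 4 were below every p53fl/fl unit, although the groups overlapped. Relative to p53fl/fl the log2 fold change was -0.57 (SE 0.14, edgeR adjusted p = 0.0143). It was -0.51, -0.68 and -0.27 within sets A, B and C, and it stayed called without each of the 34 units in turn (edgeR adjusted p 0.00565 to 0.0380). In the paired fit it was -0.47 (limma adjusted p = 0.308) and over summed units -0.48 (edgeR adjusted p = 0.200), so the size moved little while the call was lost. Hif1a (chr12:73901375-73947530, plus strand) is overlapped by Gm15283 on the opposite strand, and the sources used here do not say whether counting used strand. Egln1 and Egln3, which act on the protein, gave 0.03 (SE 0.17) and 0.34 (SE 0.45) in log2 and did not pass.

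Aldoc was at 3.63 to 38.7 CPM in p53fl/fl (median 8.99), 1.34 to 10.9 in p53R172H/fl (median 5.07) and 1.07 to 45.96 in p53R245W/fl (median 11.4). The p53fl/fl unit 459 with 4183 held the highest values of its group. The log2 fold change was -1.26 (SE 0.34, edgeR adjusted p = 0.0244), and -0.74 (edgeR adjusted p = 0.191) without that unit. Within sets A, B and C it was -0.37, -1.87 and -2.23, so its size differed widely between sets (edgeR adjusted p 0.435 to 0.706). The unit 459 with 4183 has a library in each of sets B and C and none in set A. In the paired fit Aldoc was at -0.77 (limma adjusted p = 0.601). Pfkm was at 20.3 to 74.996 CPM in p53fl/fl (median 45.7), 33.4 to 196 in p53R172H/fl (median 62.6) and 35.7 to 126 in p53R245W/fl (median 53.1). 6 of 13 p53R172H/fl units were above every p53fl/fl unit. The log2 fold change was 0.68 (SE 0.20, edgeR adjusted p = 0.0384) and 0.63 in the paired fit (limma adjusted p = 0.268). Within sets A, B and C it was 0.92, 0.58 and 0.32 (edgeR adjusted p 0.298 to 0.912). Leaving out single units ended the call for 9 of 34 (edgeR adjusted p up to 0.0872, log2 fold change 0.55 to 0.80), among them the p53R172H/fl unit 1383 (0.55, edgeR adjusted p = 0.0798). Pfkm is the phosphofructokinase of muscle, and the 10 skeletal muscle markers moved with the genotype: their summed level was 16.6 to 2555 CPM in p53fl/fl libraries (median 190), 88.1 to 13790 in p53R172H/fl (median 1389) and 21.5 to 3415 in p53R245W/fl (median 509), with no marker at 0 throughout a group. Unit 1383, a single library, had the highest muscle sum and the highest Pfkm. The part of muscle in the Pfkm result was not tested.

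Among the genes that did not pass, Car9 gave -1.11 (SE 0.36, edgeR adjusted p = 0.0646), Eno2 -1.09 (SE 0.40, edgeR adjusted p = 0.111) and Ndrg1 -0.75 (SE 0.37, edgeR adjusted p = 0.254). All 3 were nearer 0 in the paired fit, at -0.37, -0.48 and -0.04. Adm (0.58, SE 0.32) and Ankrd37 (0.44, SE 0.37) pointed the other way without passing. The direction of the list as a whole was not stable between sets: the median of the 36 log2 fold changes was 0.34 within set A, -0.29 within B and -0.70 within C, where p53fl/fl has 2 libraries. The p53fl/fl unit 459 with 4183, the highest over the 36 genes, has a library in each of sets B and C and none in set A. In set C it is 1 of the 2 p53fl/fl libraries, and its part in these medians was not tested.

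**Figure D3:**
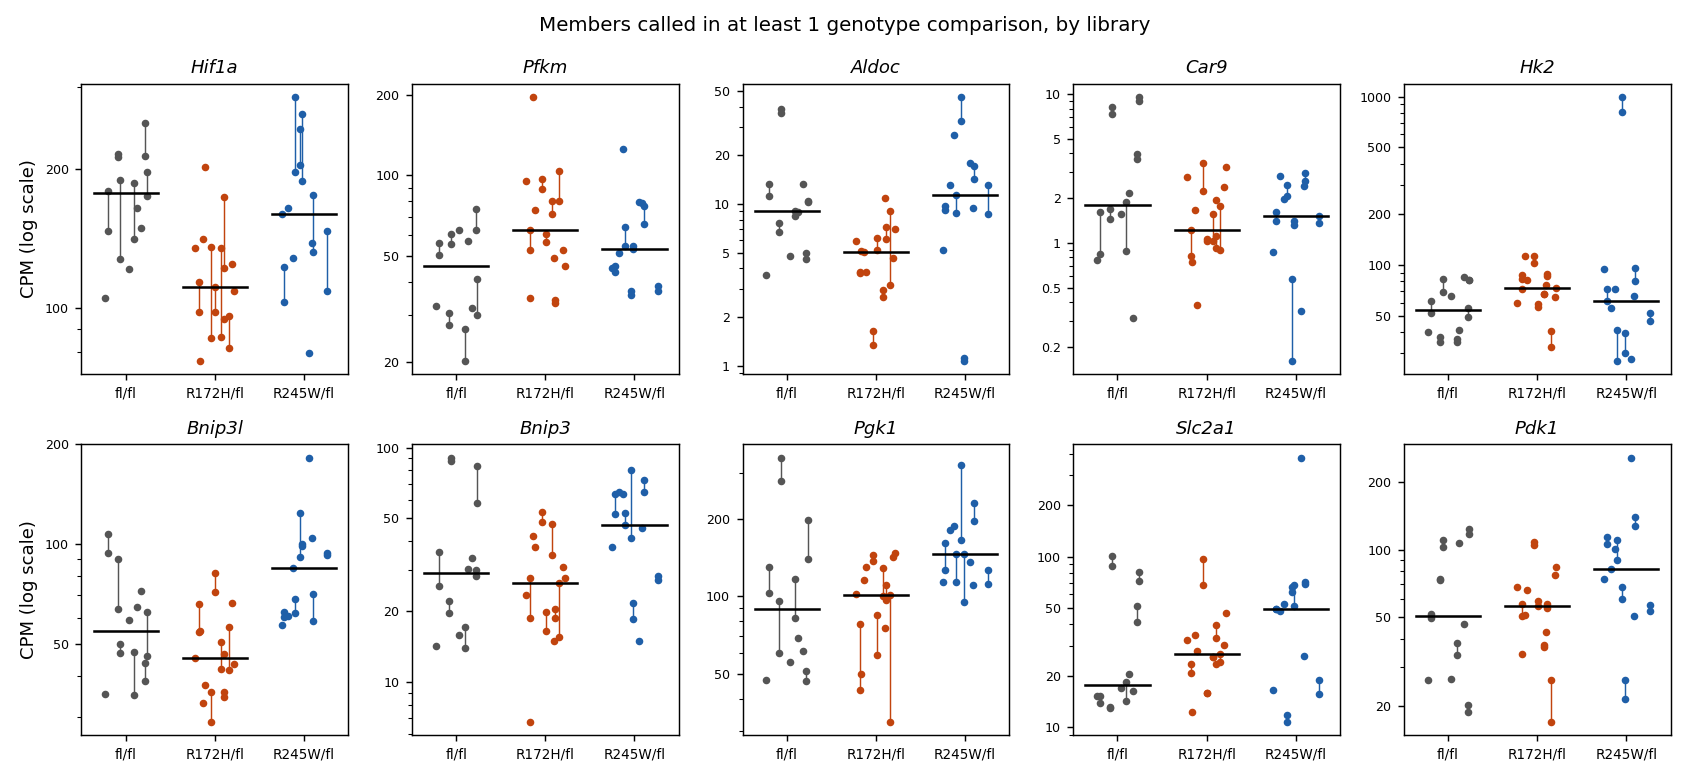
Level (CPM, log scale) of the 10 genes called in at least 1 genotype comparison, with 1 point per library and lines joining matched libraries; black bars are medians over libraries. Bnip3l is highest in p53R245W/fl (median 84.6) and Hif1a lowest in p53R172H/fl (median 111), while Hk2 stands far above the rest in 1 p53R245W/fl unit, up to 997.

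The p53R245W/fl comparison with p53fl/fl asked the same of the R245W change and used the same p53fl/fl libraries, so the values of these comparisons are not independent. Hk2 and Bnip3l were higher and Car9 was lower in p53R245W/fl, 3 of 36 genes, beside 17.8% of all genes called, and 7 of 36 had an unadjusted p under 0.05 beside 31.4% of all genes. The median log2 fold change of the 36 genes was 0.13, against 0.04 over all genes. The paired fit and the fit over summed units called 0 of 36, beside 0.0159% and 9.04% of all genes. An unadjusted p under 0.05 was found for 4 and 5 of them, beside 10.6% and 24.3% of all genes. Without the 5 low Col1a1 libraries edgeR called 0, beside 11.8%, with 4 at an unadjusted p under 0.05, beside 27.7% of all genes.

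Bnip3l (chr14:66985239-67008877, minus strand), a mitophagy receptor also known for clearing mitochondria from maturing red cells, was at 35.1 to 108 CPM in p53fl/fl (median 54.5), 29.1 to 81.7 in p53R172H/fl (median 45.2) and 57.2 to 183 in p53R245W/fl (median 84.6). All 11 p53R245W/fl units were above the p53fl/fl median and 3 were above every p53fl/fl unit. Against p53fl/fl its log2 fold change was 0.54 (SE 0.16, edgeR adjusted p = 0.0169), kept as a call without each of the 34 units in turn. It was also 0.54 in the paired fit (limma adjusted p = 0.289), and 0.29 (edgeR adjusted p = 0.248) without the 5 low Col1a1 libraries. Within sets B and C it was 0.53 and 0.19 (edgeR adjusted p = 0.460 and 0.998), where set C holds 2 p53fl/fl libraries. The 8 erythroid markers summed to 7.46 to 563 CPM in p53fl/fl libraries (median 141), 14.7 to 816 in p53R172H/fl (median 84.1) and 45.2 to 998 in p53R245W/fl (median 103), and their part in Bnip3l was not tested.

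Hk2 (chr6:82725025-82774454, minus strand), the inducible hexokinase, was at 34.9 to 85.4 CPM in p53fl/fl (median 53.9), 32.8 to 113 in p53R172H/fl (median 73.05) and 27.02 to 997 in p53R245W/fl (median 61.1). Its highest values came from 1 p53R245W/fl unit, 408 with 1835, at 3.77 above the median over units in log2. With that unit the log2 fold change was 1.47 (SE 0.38, edgeR adjusted p = 0.00638), and without it 0.02 (edgeR adjusted p = 0.959). Within sets B and C, with that unit, it was 1.93 and 0.99 (edgeR adjusted p = 0.350 and 0.998). Unit 408 with 1835 was among the low Col1a1 units and had the highest sum of keratinocyte and epithelial markers (221 CPM). Those 8 markers summed to 5.35 to 19.9 CPM in p53fl/fl, 4.52 to 66.7 in p53R172H/fl, where Krt15 was at 0 in every library, and 4.53 to 269 in p53R245W/fl libraries, and their part in the Hk2 level was not tested. Car9 was at 0.315 to 9.59 CPM in p53fl/fl (median 1.78), 0.380 to 3.47 in p53R172H/fl (median 1.22) and 0.161 to 2.93 in p53R245W/fl (median 1.51). The log2 fold change was -1.07 (SE 0.37, edgeR adjusted p = 0.0367), but -0.66 (edgeR adjusted p = 0.214) without the p53fl/fl unit 486 with 1640. It was -0.42 in the paired fit (limma adjusted p = 0.824), -1.41 and -1.56 within sets B and C (edgeR adjusted p = 0.400 and 0.998), and the call was lost on leaving out 9 of the 34 units (edgeR adjusted p up to 0.214). Ldha gave 0.60 (SE 0.24, edgeR adjusted p = 0.0814) and did not pass. Without the p53fl/fl unit 459 with 4183, 8 of the 36 were called, all higher in p53R245W/fl, beside 19.6% of all genes called and 10.8% called higher.

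Comparing the 2 missense genotypes asked whether the R245W and R172H changes go with different levels. All 8 called genes of 36 were higher in p53R245W/fl: the regulator Hif1a, the transporter Slc2a1, the enzymes Hk2, Aldoc and Pgk1, the flux gene Pdk1, which inhibits pyruvate dehydrogenase, and the mitophagy receptors Bnip3 and Bnip3l. This is beside 30.9% of all genes called (18.2% higher, 12.7% lower), and 11 of 36 had an unadjusted p under 0.05 against 41.8%. The share of the 36 called higher was near that of genes at large, and 0 of 36 were called lower. The median log2 fold change was 0.20, against 0.07 over all genes. The paired fit called 1 of 36, beside 1.55% of all genes, and the summed fit 2, beside 15.2%. Without the low Col1a1 libraries 5 were called, beside 22.5%.

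Bnip3l differed most firmly. All 11 p53R245W/fl units were above the p53R172H/fl median and 6 were above every p53R172H/fl unit. It was higher in p53R245W/fl by 0.83 in log2 (SE 0.16, edgeR adjusted p = 9.49e-05). It was 0.84 in the paired fit (limma adjusted p = 0.0209), 0.89 over summed units (edgeR adjusted p = 0.00330) and 0.57 without the low Col1a1 libraries (edgeR adjusted p = 0.00643). Within sets B and C it was 0.72 and 0.64, not passing there (edgeR adjusted p = 0.103 and 0.267). Aldoc rose by 1.53 (SE 0.33, edgeR adjusted p = 0.000598), and 5 of 11 p53R245W/fl units were above every p53R172H/fl unit while 1 was below all of them. It stayed called over summed units (1.44, edgeR adjusted p = 0.0127) but not in the paired fit (1.02, limma adjusted p = 0.191). Hif1a was higher by 0.52 (SE 0.14, edgeR adjusted p = 0.00364), with 0.39 in the paired fit (limma adjusted p = 0.206) and 0.70 and 0.33 within sets B and C (edgeR adjusted p = 0.0747 and 0.461). Aldoc gave 1.90 and 1.51 within those sets (edgeR adjusted p = 0.0786 and 0.239). Between p53R245W/fl and p53fl/fl, Hif1a gave -0.05 (SE 0.14). The edgeR calls of Bnip3l, Aldoc and Hif1a between the missense genotypes held without each of the 34 units in turn, in fits that also took matched libraries as independent.

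Pgk1 was at 46.9 to 345 CPM in p53fl/fl (median 89.3), 32.6 to 147 in p53R172H/fl (median 101) and 94.9 to 324 in p53R245W/fl (median 145). All 11 p53R245W/fl units were above the p53R172H/fl median. Between the missense groups the log2 fold change was 0.67 (SE 0.22, edgeR adjusted p = 0.0199) but 0.23 in the paired fit (limma adjusted p = 0.693), which includes library set. In the matched pairs of sets B and C, Pgk1 was lower in set B by a mean of 0.557, and set C held 11 of the 17 p53R245W/fl libraries. Within sets B and C the difference was 0.73 and 0.70 (edgeR adjusted p = 0.254 and 0.224). Bnip3 was at 13.99 to 90.7 CPM in p53fl/fl (median 29.2), 6.77 to 52.9 in p53R172H/fl (median 26.5) and 14.9 to 80.3 in p53R245W/fl (median 46.6), with a log2 fold change between the missense groups of 0.74 (SE 0.25, edgeR adjusted p = 0.0220) and 0.67 and 0.64 within sets B and C (edgeR adjusted p = 0.347 and 0.380). Without the p53R245W/fl unit 433 with 1827, Pgk1 gave 0.58 (edgeR adjusted p = 0.0525) and Bnip3 0.64 (edgeR adjusted p = 0.0604) and neither passed, nor did Pgk1 without 408 with 1835 (0.56, edgeR adjusted p = 0.0561).

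Slc2a1 and Pdk1 were close to the threshold. Slc2a1 was at 12.98 to 101 CPM in p53fl/fl (median 17.5), 12.3 to 97.2 in p53R172H/fl (median 26.97) and 10.7 to 382 in p53R245W/fl (median 49.3). Its highest library was the p53R245W/fl tumour 1580, 3.82 above the median over units in log2. The log2 fold change was 0.93 (SE 0.36, edgeR adjusted p = 0.0433) with that tumour and 0.38 (edgeR adjusted p = 0.371) without it, and the call was lost on leaving out 13 of the 34 units. Within sets B and C it was 0.44 and 1.66 (edgeR adjusted p = 0.648 and 0.267), and tumour 1580 is in set C. Pdk1 was at 18.8 to 124 CPM in p53fl/fl (median 50.6), 16.996 to 108 in p53R172H/fl (median 55.8) and 21.4 to 259 in p53R245W/fl (median 81.9). It gave 0.66 (SE 0.26, edgeR adjusted p = 0.0453) and lost its call on leaving out 15 of the 34 units (0.48 to 0.82 over all 34, edgeR adjusted p up to 0.143). Within sets B and C Pdk1 gave 0.55 and 0.97 (edgeR adjusted p = 0.485 and 0.267). Hk2 gave 1.07 (SE 0.36, edgeR adjusted p = 0.0204) and turned to -0.38 (edgeR adjusted p = 0.0838) without the unit 408 with 1835, which has a library in each of sets B and C, where Hk2 gave 1.56 and 0.90 (edgeR adjusted p = 0.178 and 0.539). In all 3 comparisons and for all 36 genes, the units of the 2 genotypes overlapped. The share of all genes that overlap in this way was not computed, so this is no trait of the 36.

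**Figure D4:**
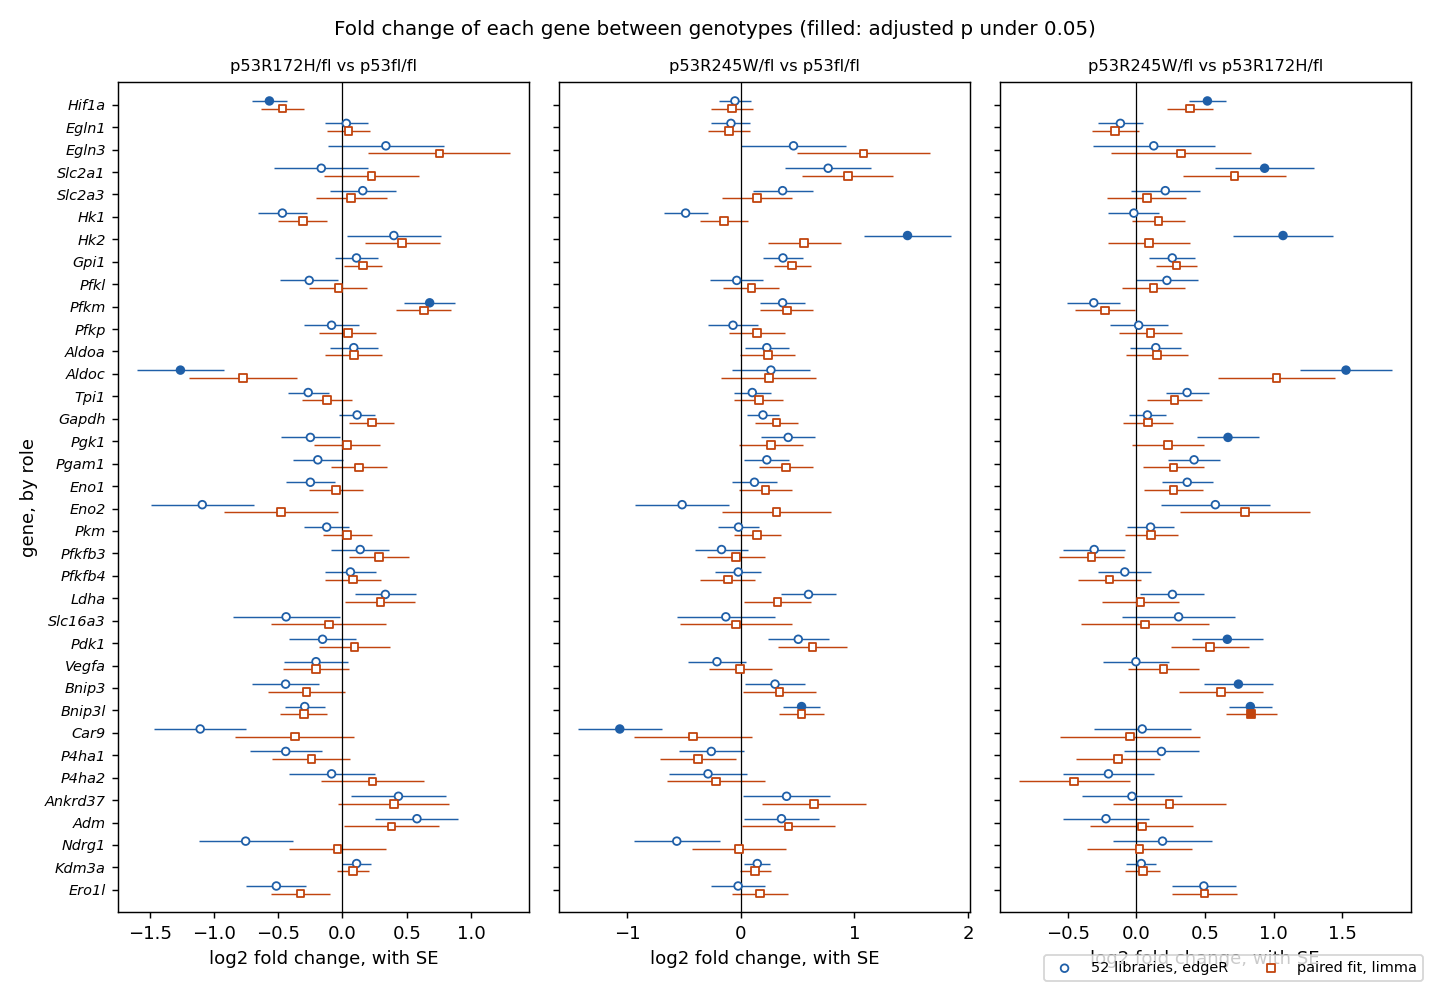
Log2 fold change of each of the 36 genes (rows, by role) in the 3 genotype comparisons, with bars of 1 SE; blue circles are edgeR over 52 libraries and red squares the paired limma fit, filled where the adjusted p is under 0.05. Of the 14 filled circles, only Bnip3l between the missense genotypes (0.83, and 0.84 paired) is also filled in the paired fit.

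The balance of the hexokinases differed between p53R172H/fl and p53fl/fl, over libraries and over units but not within single sets after adjustment. Hk1, the constitutive form, was at 76.4 to 226 CPM in p53fl/fl (median 117), 52.5 to 146 in p53R172H/fl (median 81.8) and 25.5 to 175 in p53R245W/fl (median 80.8). Per length, Hk2 was above Hk1 in 0 of 16 p53fl/fl, 11 of 19 p53R172H/fl and 7 of 17 p53R245W/fl libraries. These counts depend on the exonic lengths used, 5969 bases for Hk2 and 8532 for Hk1, which cancel in differences between genotypes. The log2 ratio of Hk2 to Hk1 per length was -0.62 ± 0.47 (SD, n = 16) in p53fl/fl and 0.25 ± 0.59 (SD, n = 19) in p53R172H/fl. The difference of 0.87 had a two-sided permutation p of 6e-05, adjusted to 0.0018 over 30 tests (10 isozyme pairs in 3 comparisons). Over units it was 0.84 (permutation p = 0.00064, adjusted p = 0.0192). Within sets A, B and C it was 0.92, 0.88 and 0.54 (exact permutation p = 0.00793, 0.0303 and 0.0952; adjusted p = 0.0738, 0.411 and 0.952). In set C, 5 libraries against 2 cannot give a two-sided p under 0.0952. Neither gene passed alone: Hk2 gave 0.40 (SE 0.37, edgeR adjusted p = 0.607) and Hk1 -0.47 (SE 0.19, edgeR adjusted p = 0.150). The ratio also moved with library set, being lower in the set B library in 17 of 18 matched pairs. The mean difference was -0.08 (SD 0.082) over the 6 pairs with set A and -0.74 (SD 0.135) over the 12 pairs with set C. Hk1 alone differed by 0.007 over the pairs with set A and was higher in set B by 0.954 over those with set C. Hk1 overlaps Hk1os on the opposite strand.

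**Figure D5:**
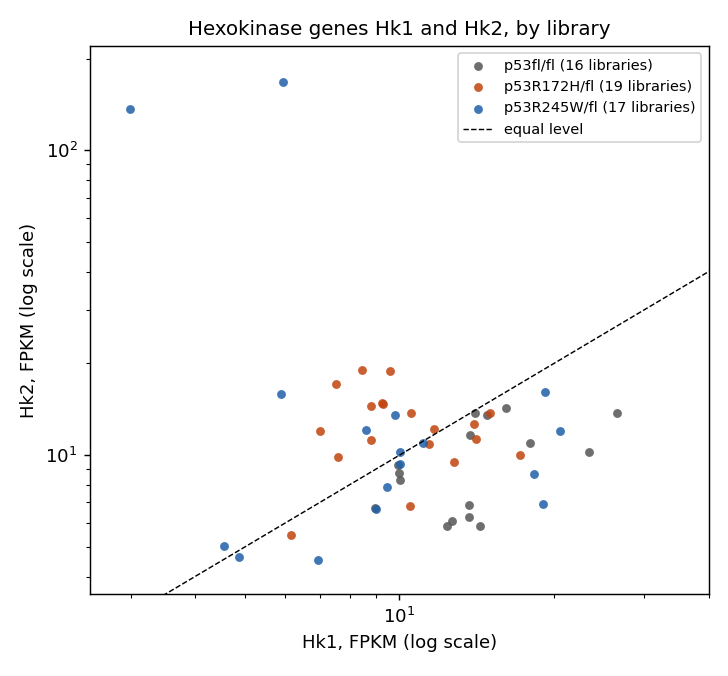
Hk2 against Hk1 in FPKM (both axes log scale), 1 point per library, coloured by genotype, with a dashed line of equal level per length. The place of the line depends on the exonic lengths used. All 16 p53fl/fl libraries lie below the line and 11 of 19 p53R172H/fl libraries above it; the 2 points at the top left are the p53R245W/fl unit 408 with 1835.

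For p53R245W/fl against p53fl/fl the difference in the hexokinase ratio was 1.08 (permutation p = 0.01, adjusted p = 0.0751), and 0.44 without the low Col1a1 libraries (permutation p = 0.0713, adjusted p = 0.267). A further 2 ratios passed between p53R172H/fl and p53fl/fl over libraries but not over units. Pfkl to Pfkm was lower by 0.81 in log2 (a difference of -0.813, permutation p = 0.00356, adjusted p = 0.0356; adjusted p = 0.244 over units). Aldoc to Aldoa differed by -1.08 (permutation p = 0.0016, adjusted p = 0.024; adjusted p = 0.182 over units). Egln3 to Egln1 in p53R245W/fl against p53fl/fl gave 1.07 (permutation p = 0.0167, adjusted p = 0.100). The other 25 tests had adjusted p of 0.112 or more.

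Other genes of the pathway, from lists that hold none of the 36, were counted beside them. In the order of comparisons above, edgeR called 3.75%, 17.8% and 30.9% of all genes. Between the missense genotypes 18.2% were called higher and 12.7% lower. The paired fit called 0.0106%, 0.0159% and 1.55%, with 9.0%, 10.6% and 17.7% at an unadjusted p under 0.05. Over summed units the shares were 0.259%, 9.04% and 15.2%, and without the low Col1a1 libraries 6.1%, 11.8% and 22.5%. Of 14 other genes of the HIF switch, 2 were called lower in p53R172H/fl than in p53fl/fl (Elob, an elongin subunit of the Vhl ligase, at -0.46, and Hif3a). Against p53fl/fl, p53R245W/fl had 3 higher, the Vhl ligase components Rbx1 (0.65), Vhl (0.71) and Eloc (0.58), and Hif3a lower. Between the missense genotypes 6 were higher in p53R245W/fl and 2 lower, among them Rbx1 (0.91, SE 0.16, edgeR adjusted p = 6.46e-05), Eloc (0.82), Elob (0.79), Cul2 (0.38), the coactivator Crebbp (-0.48) and Epas1 (-0.74), the HIF2 alpha subunit. The paired limma fit called 0 of the 14 in each comparison, with 2, 0 and 6 at an unadjusted p under 0.05 in the order given, and edgeR over summed units called 1, 3 and 5. Without the 5 low Col1a1 libraries edgeR called 0, 0 and 3 higher and 2, 1 and 2 lower. Rbx1, Vhl and Eloc then did not pass against p53fl/fl (edgeR adjusted p = 0.0523, 0.05175 and 0.0973). Between the missense genotypes, Cul2 and Epas1 did not pass either (edgeR adjusted p = 0.0766 and 0.1855). Hif3a was near 0 in most units, so its fold is not given.

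Of 36 tested genes among 45 others of glycolysis and pyruvate use, 1 was higher and 1 lower in p53R172H/fl than in p53fl/fl (Pfkfb1 at 0.59 and Pgm2 at -0.49). In p53R245W/fl against p53fl/fl 7 were higher and 0 lower, including both subunits of the mitochondrial pyruvate carrier, Mpc2 (0.87) and Mpc1 (0.54), and the dehydrogenase Ldhb (1.18). Against p53R172H/fl, 12 were higher and 3 lower, including Mpc1 (0.79), the lactate transporter Slc16a1 (1.23) and the pyruvate dehydrogenase subunit Pdhb (0.62). In the paired fit Pgm2 (0.63, limma adjusted p = 0.0209) and Mpc1 (0.68, limma adjusted p = 0.0385) were called between the missense genotypes, and 0 against p53fl/fl. Over summed units edgeR called 1 higher (Mpc2) in p53R245W/fl against p53fl/fl, and 5 higher and 1 lower between the missense genotypes. Without the 5 low Col1a1 libraries it called 3 higher and 0 lower, and 10 higher and 1 lower. Ldhb then did not pass against p53fl/fl (0.97, edgeR adjusted p = 0.0608).

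Of 45 tested genes among 46 others known to be induced by hypoxia, edgeR called 0 between p53R172H/fl and p53fl/fl, with 4 at an unadjusted p under 0.05, and the paired limma fit also 0, with 3. Over all genes, edgeR called 3.75%, with 18.6% at an unadjusted p under 0.05, against 9.0% in the paired fit. In p53R245W/fl, 3 were higher than in p53fl/fl (Pnrc1 at 0.70, Narf at 0.51 and Errfi1 at 0.75) and 7 higher and 2 lower than in p53R172H/fl, among them Errfi1 (0.93), Rora (0.76) and Stc2 (-1.03). The paired fit called 0 of them in p53R245W/fl against p53fl/fl, and 1, Pnrc1 (0.66, limma adjusted p = 0.0365), between the missense genotypes. Over summed units edgeR called 2 in each of these comparisons, all higher. Without the 5 low Col1a1 libraries it called 5 higher and 0 lower in each. Stc2 then did not pass (-0.64, edgeR adjusted p = 0.165). Of 10 p53-linked genes of glucose use, edgeR called 0 against p53fl/fl in either missense genotype, with 4 at an unadjusted p under 0.05 in p53R172H/fl and 1 in p53R245W/fl, and the paired limma fit also 0, with 3 and 1. Over all genes, 18.6% and 31.4% had an unadjusted p under 0.05 by edgeR, and 9.0% and 10.6% in the paired fit. Sco2, an assembly factor of cytochrome oxidase, was higher in p53R245W/fl than in p53R172H/fl (0.90, edgeR adjusted p = 0.0180) but not in the paired fit (0.03).

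Alongside these differences, the share of counts at loci that GENCODE annotates as sense intronic or in the provisional class TEC, which can hold unspliced RNA, had a median of 0.325% in p53fl/fl, 0.304% in p53R172H/fl and 0.152% in p53R245W/fl libraries. With that share as a covariate, 3 of the 36 genes were called between the missense genotypes, beside 8.73% of all genes, and the median log2 fold change of the 36 was -0.12. Between p53R245W/fl and p53fl/fl 3 were called, beside 5.83%, with a median of -0.10. The sign of both medians was thus opposite to that without the covariate, 0.20 and 0.13.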

How the data were processed

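Bulk RNA-seq was measured in 52 mouse osteosarcoma libraries. The authors deposited raw counts per gene, aligned with STAR to GRCm38 per the submitters' processing notes. The sources used here name no counter and do not state its use of strand; the labels' protocols name a stranded mRNA preparation of total RNA. Every gene in the table has a total of at least 260 counts over libraries. From the counts, CPM used TMM factors with a prior count of 2 on the log2 scale; FPKM used exonic union lengths of GENCODE M21, matched for 20668 of 20730 genes. All 36 genes passed the filter (filterByExpr, minimum count 10, 18882 genes kept). The main test was edgeR 4.0.16 quasi-likelihood (R 4.3.3) over all libraries, with Benjamini-Hochberg adjustment. The paired fit was limma 3.58.1 (voom weights) with a term for library set and a duplicateCorrelation block of matched libraries (correlation 0.857). The 18 pairs come from the data, not the labels: each set B library matched 1 library far better than any other. Ratios and correlations used permutation tests with 100000 resamples (scipy 1.17.1), whose smallest p is 1e-05, exact where all arrangements were fewer. Alternatives were DESeq2 1.42.0, RLE factors, quality weights, other filters, 2 groups alone, set as a covariate, single sets, summed units, and libraries left out. Leaving out each unit in turn, and ratios and correlations without the low Col1a1 units, were chosen after seeing the data. The scripts were tested on simulated counts. The 36 genes and all lists were chosen with earlier results of these data known. All 36 are named or counted; of other lists, called genes are named, at most 6 a list by smallest p; the 8 most similar genes outside the 36 are named.

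Genes of the table that overlap the 36 are Gm15283 (Hif1a), Hk1os (Hk1), Senp1 (Pfkm), Pitrm1 (Pfkp), Fam57b (Aldoa), Spsb2 (Tpi1), Iffo1 (Gapdh), Gm12454 (Car9), Ufsp2 and Lrp2bp (Ankrd37), and Gm2895 (Ndrg1), all on the opposite strand, as is Gm26762 (Gpi1). On the same strand, Gm4482 (Slc2a3), Gm26513 (Pfkm), Gm37975 (Pfkfb3) and Gm49759 (Pkm) overlap. Aldoa, Gapdh, Pgk1, Pgam1, Ldha and Bnip3l have named pseudogenes in GENCODE M21, and reads shared with such copies make their counts less certain.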

Additional observations from a re-analysis of the deposited data

How the results depend on the processing

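Counts of called genes among the 36 differed between fits, as did those over all genes. For p53R172H/fl against p53fl/fl the count of 3 became 0 in the paired fit with the block of matched libraries, 0 over summed units, 0 without set B (0.19% of all genes called) and 0 within each of sets A, B and C, where 0.532%, 0.00549% and 0.0% of all genes were called. For p53R245W/fl against p53fl/fl the count of 3 became 0 in the paired fit, over summed units, within sets B and C and without the low Col1a1 libraries, and 1 without set B (11.3% of all genes); within sets B and C 0.022% and 0.0% of all genes were called. Counts of 0 in fits that called almost no gene say nothing about the 36. For p53R245W/fl against p53R172H/fl the count of 8 became 5 with set as a covariate (22.8% of all genes), 1 in the paired fit, 2 over summed units, 2 without set B (14.4%), 0 within set B (3.38%), 0 within set C (0.0148%), 5 without the low Col1a1 libraries and 3 with the intronic share as a covariate. DESeq2, RLE factors, quality weights, other filters and fits of 2 groups alone left these counts within 1.5 times. Leaving out each unit in turn, the counts ranged from 2 to 4, from 1 to 8 and from 4 to 10. The p53R245W/fl comparison with p53fl/fl fell to 1 without the p53R245W/fl unit 408 with 1835 (17.6% of all genes) and rose to 8 without the p53fl/fl unit 459 with 4183 (19.6%), and the missense comparison fell to 5 without 408 with 1835 (30.4%) and to 4 without the p53R245W/fl unit 433 with 1827 (29%). Hk2 between the missense genotypes turned from 1.07 to -0.11 with quality weights, -0.24 without the low Col1a1 libraries and -0.38 without unit 408 with 1835, and leaving out other single units gave up to 1.21 (without 494 with 1831). The isozyme count of 3 (p53R172H/fl against p53fl/fl) became 1 over units, also without the low Col1a1 units, and 0 within each of sets A, B and C, where fewer libraries enter. The 6 relations became 3 within p53fl/fl, 1 within p53R172H/fl, 3 within p53R245W/fl, 2 within set A and 3 within set C, each with fewer points. Dixon's test, which compares the lowest or highest unit with its nearest neighbour, flagged no p53fl/fl unit for any of the 36 genes. It cannot flag 2 units that lie together. For Ero1l, the p53fl/fl units 459 with 4183 and 486 with 1640 deviated by 1.73 and 1.64, and the tested gap was 0.042 of the range. The test therefore does not show that p53fl/fl held no outlying units. The other groups hold more than 10 units and were not tested. At the depth of these libraries, the lowest count of a member in a library was 6 (Car9), so Car9 has the least precise values. Library set and genotype overlap in part: set A holds no p53R245W/fl library. The cause of each lost call was not tested.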
